A study of Mus musculus with 8 samples.

Results

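The transcript abundance of 10 transcription factors of the Sox and Fox families was compared between mutant and wild-type endothelial cells (ECs) of the postnatal mouse brain. The 10 were Sox7, Sox17 and Sox18, which make up the SoxF group, and the forkhead genes Foxq1, Foxf2, Foxc1, Foxc2, Foxl2, Foxo1 and Foxp1. They were listed by name as factors known from blood vessels, with earlier results of these data already known. All 10 were found by their Ensembl identifiers among the 49315 genes of the count files, and so were measured. ECs were taken from whole brains at postnatal day 9 (P9) with magnetic beads carrying an antibody to CD31, an EC surface protein, and each library came from 1 pup. The 4 mutant pups carried the alleles R26 GT-Map2k1-GFP/+ and Tg-Cdh5CreER+/-, and the other 4 pups were labelled wild type. Whole litters received tamoxifen at postnatal day 1, so that this treatment was common to both groups, and wild-type pups were chosen from the litters of the mutant pups. In the mutant pups tamoxifen switched on a CAG-driven cDNA for MAP2K1 (p.K57N), an activated form of the kinase that phosphorylates ERK, from the Rosa locus. The Cre driver is restricted to cells that use the Cdh5 promoter, only some of the ECs had recombined the allele, and no group carried unmutated Map2k1 at the Rosa locus, so the mutant libraries are mixtures of recombined and unrecombined cells.

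SoxF proteins bind DNA through a high mobility group (HMG) box, and in the endothelium they act in arterial specification and vessel remodelling together with VEGF and Notch signalling. Forkhead proteins bind DNA through a winged-helix domain. Foxf2, Foxq1, Foxl2 and Foxc1 are among the factors enriched in brain ECs. Foxf2 and Foxc1 act in the blood-brain barrier and in the stability of small cerebral vessels. Foxo1 restrains endothelial growth and metabolism and is held out of the nucleus when AKT phosphorylates it.

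The 3 SoxF genes are close relatives whose transcripts can still be told apart. Over the aligned coding sequence, from the GENCODE transcripts of GRCm38, identity was 56.9% between Sox17 and Sox7, 56.8% between Sox17 and Sox18 and 53.1% between Sox18 and Sox7. No run of 50 bases was shared between transcripts of any pair of these genes, so a read of that length that matched fully would match only 1 of the 3.

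The libraries held between 24833373 and 34196955 counts assigned to genes. Map2k1, the targeted gene, had a normalized count of 14619 ± 2851 in the mutant group and 1611 ± 116 in the wild-type group (SD, n = 4 each), a fold increase of 9.07 (log2 fold change 3.18, SE 0.13, adjusted p = 2.8e-07, edgeR quasi-likelihood test, Benjamini-Hochberg adjusted), and no library went against its label. Normalized counts are scaled for library composition to the mean library size. All 10 endothelial markers were measured in every library, and their summed level ranged from 384216 to 465389 normalized counts in the mutant group and from 370512 to 453476 in the wild-type group (exact permutation p = 0.943). Within that sum the markers moved apart: Cdh5 (1.11), Emcn (0.82) and Pecam1 (0.53) rose, Kdr (-0.59), Cldn5 (-0.47), Tek (-0.44) and Eng (-0.42) fell, and Tie1, Flt1 and Esam did not pass (log2 fold changes). The summed level of 6 oligodendrocyte markers was 1267 to 2186 in the mutant group against 3190 to 8782 in the wild-type group, that of 5 red blood cell genes was 2573 to 8461 against 15739 to 27319, and that of 11 pericyte and smooth muscle markers was 23921 to 40374 against 21933 to 41967. Of those 11, Abcc9 (log2 fold change 1.78), Kcnj8 (0.81) and Tagln (0.73) rose, 0 fell and the rest did not pass. Summed astrocyte markers, mostly Gja1, were at 18299 to 22005 against 10625 to 12611. Among these markers only Gja1 rose (log2 fold change 0.80), Aldh1l1 fell (-0.96), and Gfap, Aqp4 and Slc1a3 did not pass. Summed lymphatic markers, mostly Flt4, were at 9522 to 16096 against 8613 to 9512. Only Flt4 rose among them (0.45), and Prox1, Lyve1 and Pdpn did not pass. The fibroblast, neuron, microglia and choroid plexus sums overlapped between the groups, and of all markers Ccl21a of the lymphatic list was at 0 in every library. The oligodendrocyte, red blood cell, astrocyte and lymphatic sums did not overlap between the groups, each at the smallest exact permutation p that 4 libraries a group allow (0.0286, adjusted over 10 lists 0.0714). P-values set the difference between the groups against the spread between these pups. In such bulk libraries fewer cells that express a gene and less RNA per cell cannot be told apart.

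Among the 10 factors, 6 fell, 1 rose and 3 did not pass the test in the mutant group. The 6 that fell were Sox7, Sox17, Foxq1, Foxf2, Foxc1 and Foxl2, and the 1 that rose was Foxo1. The call was an adjusted p under 0.05 over the 16887 genes tested, which 44.4% of those genes passed, 22.9% lower and 21.5% higher. With the further limit of a log2 fold change beyond 1 in size, 4 factors were lower and none higher (Foxq1, Foxc1, Sox17 and Foxf2), where 8.05% of all genes were lower and 5.90% higher. All 4 mutant libraries lay below all 4 wild-type libraries for 6 factors and above them for 0. Groups did not overlap for 42.5% of all genes, with the mutant libraries below for 21.9% and above for 20.6%. The first digits of the sample descriptions group the pups as 2 mutant and 2 wild type, 1 and 1, and 1 and 1; the labels do not say that these digits are litters. With them as a block, all 10 factors passed, 8 lower and 2 higher, where 26.2% of all genes were lower and 24.8% higher. With the replicate number as a block, 7 were lower and 2 higher, against 24.8% and 23.5% of all genes. The median log2 fold change of the 10 factors was -0.62, and that of all genes tested was -0.02. Because the 10 were chosen with earlier results of these data known, their shares may partly reflect that choice.

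**Figure D1:**
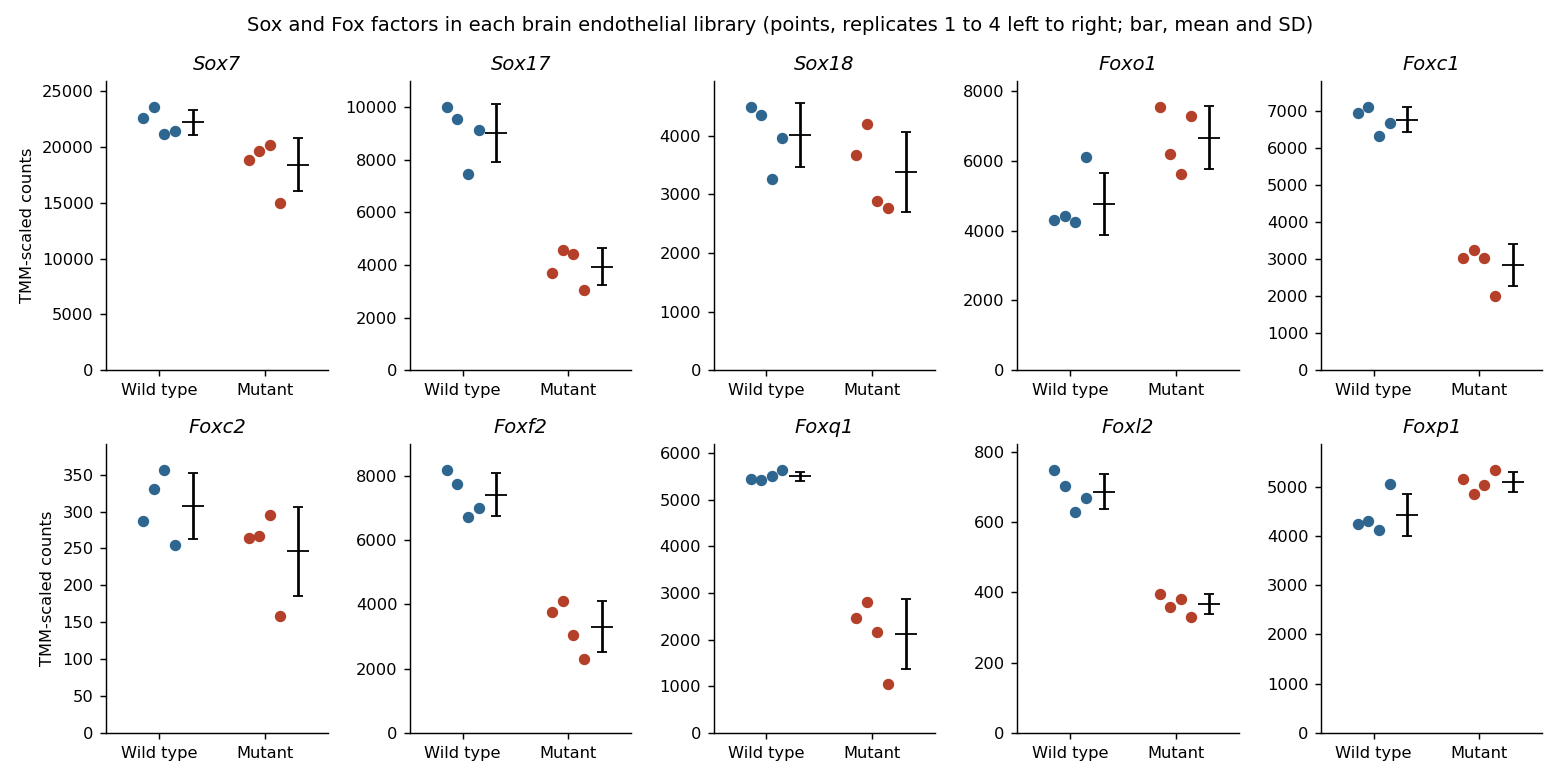
Normalized (TMM-scaled) counts of the 10 factors in each library, with wild-type pups in blue, mutant pups in red, replicates 1 to 4 from left to right, and the mean and SD of each group beside the points. For Sox7, Sox17, Foxc1, Foxf2, Foxq1 and Foxl2 every mutant point lies below every wild-type point, while wild-type replicate 4 stands at 6102 for Foxo1, above mutant replicate 3 at 5624.

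Sox17, the SoxF factor best known for arterial identity, fell to 43.6% of its wild-type mean. Its gene lies on chromosome 1 (4490931 to 4497354, minus strand, GRCm38). Sox17 had 3687, 4587, 4423 and 3069 normalized counts in mutant replicates 1 to 4 and 9997, 9539, 7469.9 and 9122 in wild-type replicates 1 to 4. The highest mutant library was well below the lowest wild-type library, and within each group the libraries differed less than the groups did. Its fitted log2 fold change was -1.20 (SE 0.14, adjusted p = 8.8e-05, edgeR quasi-likelihood test, Benjamini-Hochberg adjusted). Of the exon bases of Sox17, 16.8% also belong to Gm37587 on the other strand, to which 373 counts were assigned over all 8 libraries.

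Sox7, the most abundant of the 10 factors, fell by a smaller amount. It lies on chromosome 14 (63943674 to 63950732, plus strand). Sox7 had 18881, 19666, 20192 and 14984 normalized counts in the mutant libraries and 22658, 23575, 21180.4 and 21453 in the wild-type libraries, both in replicate order. The groups did not overlap, and mutant replicate 4 was the lowest of the 8 libraries. The log2 fold change was -0.27 (SE 0.10, adjusted p = 0.047, edgeR quasi-likelihood test, Benjamini-Hochberg adjusted). This call was close to the threshold and was lost without any 1 library other than mutant replicate 3, with a log2 fold change of -0.16 when mutant replicate 4 was left out (adjusted p = 0.106).

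Sox18, which acts in vascular and lymphatic development, did not pass the test. Its gene lies on chromosome 2 (181669836 to 181671640, minus strand). The mutant libraries had 3678, 4211, 2881 and 2771.5 normalized counts and the wild-type libraries 4488, 4354, 3257 and 3966. Mutant replicates 1 and 2 lay within the range of the wild-type libraries, and wild-type replicate 3 was below both. The log2 fold change was -0.25 (SE 0.14, adjusted p = 0.192), and it passed with a term for the replicate number (-0.26, adjusted p = 0.035) or for the digits that sample labels share across groups (-0.26, adjusted p = 0.024) (both from the edgeR quasi-likelihood test, Benjamini-Hochberg adjusted).

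Within libraries, Sox17 fell relative to both of its relatives. The log2 ratio of Sox17 to Sox7 was -2.23 ± 0.11 in the mutant group and -1.31 ± 0.14 in the wild-type group (SD, n = 4), a difference of -0.93 (exact permutation p = 0.0286, adjusted over 8 pairs p = 0.0457). For Sox17 to Sox18 the ratio was 0.22 ± 0.27 against 1.17 ± 0.03, a difference of -0.95 (exact permutation p = 0.0286, adjusted p = 0.0457). No smaller p than 0.0286 is possible with 4 libraries a group. The ratio of Sox7 to Sox18 was 2.46 ± 0.25 against 2.48 ± 0.16, so a difference between these 2 genes was not detected (exact permutation p = 0.857).

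Foxq1, Foxf2 and Foxc1 lie in 1 cluster of forkhead genes on chromosome 13, and all 3 fell. The starts of Foxq1 (31558324 to 31560976) and Foxc1 (31806691 to 31810643) are 248.4 kb apart, with Foxf2 (31625816 to 31631403) between them, and all 3 are on the plus strand. The 250 bases before the RefSeq start of Foxf2 and of Foxc1 are shown because these neighbours moved together, in the build GRCm38.p6 and on the plus strand, at chr13:31625566-31625815 and chr13:31806396-31806645. Capitals mark the 1 match among the motifs searched.
Foxf2: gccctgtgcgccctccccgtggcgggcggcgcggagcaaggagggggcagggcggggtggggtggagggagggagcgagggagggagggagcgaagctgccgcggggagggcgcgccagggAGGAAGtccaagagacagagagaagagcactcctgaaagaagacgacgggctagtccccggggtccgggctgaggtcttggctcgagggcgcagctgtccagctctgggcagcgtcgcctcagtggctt
Foxc1: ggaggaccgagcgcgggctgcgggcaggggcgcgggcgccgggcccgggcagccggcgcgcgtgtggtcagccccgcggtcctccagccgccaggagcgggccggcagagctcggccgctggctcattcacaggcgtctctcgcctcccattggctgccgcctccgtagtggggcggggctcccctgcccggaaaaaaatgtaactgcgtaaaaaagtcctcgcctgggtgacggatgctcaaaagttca
Both windows were rich in G and C, at 71.6% for Foxf2 and 70.8% for Foxc1. The motifs were ACAAT for Sox proteins, GTAAACA and GTAAATA for forkhead proteins, and CGGAAG and AGGAAG for ETS proteins, each on both strands. Foxf2 held AGGAAG, 129 bases before its start, and Foxc1 held none of the 5. In windows of the same length before 32851 RefSeq starts, AGGAAG was present in 29.5%, CGGAAG in 13.6%, ACAAT in 27.7%, GTAAACA in 3.17% and GTAAATA in 2.73%. Of the 3 other factors with a window in the table, Foxl2, Foxo1 and Foxp1, 0 held a match.

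Foxq1, a forkhead factor enriched in brain ECs, had the largest fall of the 10 factors. It had 2474, 2801, 2159 and 1056 normalized counts in mutant replicates 1 to 4 and 5438, 5434, 5519.5 and 5641 in wild-type replicates 1 to 4. The wild-type libraries were nearly equal, whereas the mutant libraries were spread widely with replicate 4 the lowest. On the log2 scale the change was -1.38 (SE 0.23, adjusted p = 9.3e-04, edgeR quasi-likelihood test, Benjamini-Hochberg adjusted), and it ranged from -1.54 to -1.13 when 1 library was left out. Of the counted exon bases of Foxq1, 38.1% also belong to A530084C06Rik on the minus strand. To that gene 5270 counts were assigned over all libraries, and it fell by 1.71 on the log2 scale. In the longest GENCODE coding transcript of Foxq1, 65.7% of the runs of 50 bases were shared with A530084C06Rik. Whether reads were counted by strand is not given in the sources used here, so the reads of this pair cannot be told apart with certainty.

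Foxf2, whose loss in mice weakens the blood-brain barrier, fell to 44.6% of its wild-type mean. The mutant libraries had 3759, 4094.6, 3052 and 2307 normalized counts and the wild-type libraries 8176, 7731, 6702 and 7007. The groups were far apart, with mutant replicate 4 the lowest. The fitted log2 change was -1.17 (SE 0.16, adjusted p = 2.4e-04, edgeR quasi-likelihood test, Benjamini-Hochberg adjusted).

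Foxc1, a factor linked to cerebral small vessel disease, fell to 41.9% of its wild-type mean. It had 3048, 3263, 3046 and 2009.8 normalized counts in the mutant libraries and 6961, 7113, 6336 and 6692 in the wild-type libraries. Mutant replicates 1 to 3 were close to each other and replicate 4 was lower. On the log2 scale Foxc1 changed by -1.25 (SE 0.13, adjusted p = 6.15e-05, edgeR quasi-likelihood test, Benjamini-Hochberg adjusted).

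The fall in this cluster was also seen in noncoding neighbours. In the stretch from Foxq1 to Foxc1 with 200 kb on either side, 16 genes were annotated and 9 were tested. Besides the 3 forkhead genes and A530084C06Rik, which is annotated as protein-coding, the log2 fold changes were -1.49 for Gm11377 (adjusted p = 1.2e-03), -1.16 for 1700018A04Rik (adjusted p = 9.1e-04) and -2.15 for Gm11378 (adjusted p = 1.6e-03). Gm11379, next to Foxc1, had a log2 fold change of -0.44 and did not pass (adjusted p = 0.086). Gmds, an enzyme of fucose metabolism on the far side of Foxc1, rose by 0.47 (adjusted p = 1.4e-03). All 6 of these neighbours were at lower normalized counts than each of the 3 forkhead genes in the wild-type group, at a mean of 982 for A530084C06Rik and less for the others.

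**Figure D2:**
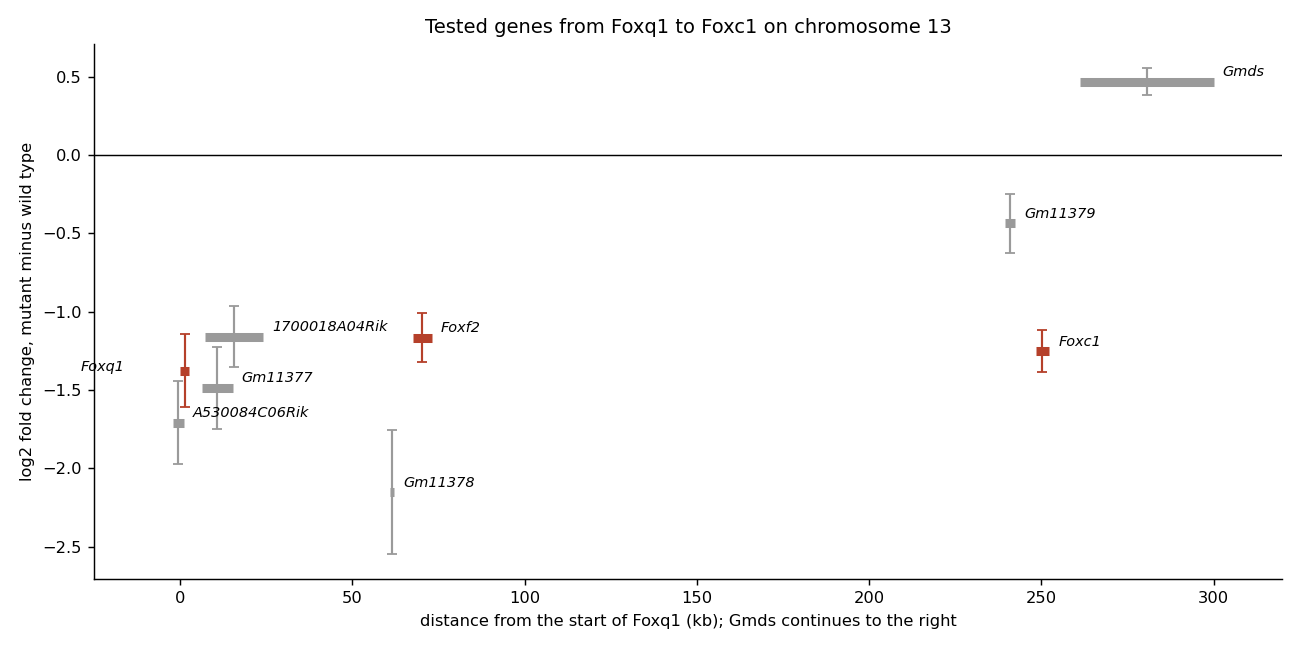
Log2 fold change (mutant minus wild type) of the 9 tested genes around the chromosome 13 forkhead cluster, plotted at their distance in kb from the start of Foxq1. Red marks Foxq1, Foxf2 and Foxc1, vertical bars are standard errors, and 8 of the 9 genes lie below 0 with Gmds above it at 0.47. A530084C06Rik shares exon bases with Foxq1.

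Foxc2, the relative of Foxc1 that acts in lymphatic valves and arterial specification, was the least abundant of the 10 factors and did not pass the test. It lies on chromosome 8 (121116171 to 121118895, plus strand). It had 265, 266.5, 296 and 158 normalized counts in the mutant libraries and 286.5, 331, 356 and 255 in the wild-type libraries. Mutant replicate 4 was the lowest, and the other 3 mutant libraries lay within the wild-type range. The log2 fold change was -0.32 (SE 0.19, adjusted p = 0.198), and with a term for the shared label digits it was -0.34 (adjusted p = 0.036) (both from the edgeR quasi-likelihood test, Benjamini-Hochberg adjusted). Foxc1 fell relative to Foxc2, with a log2 ratio of 3.54 ± 0.13 in the mutant group and 4.47 ± 0.24 in the wild-type group (SD, n = 4), a difference of -0.93 (exact permutation p = 0.0286, adjusted p = 0.0457). The transcripts of Foxc1 and Foxc2 shared 4 runs of 50 bases.

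Beside Foxc2 on chromosome 8, 31.8 kb away, lies Foxf1, the relative of Foxf2. Foxf1 fell by 0.99 on the log2 scale (SE 0.11, adjusted p = 6.7e-05), from 2095 ± 165 to 1058 ± 152 normalized counts (SD, n = 4), and its noncoding neighbour Fendrr fell by 0.54 (adjusted p = 0.013). Of the other tested neighbours, Mthfsd fell by 0.40 (adjusted p = 0.018) and 5033426O07Rik rose by 0.99 (adjusted p = 3.1e-03). The log2 ratio of Foxf2 to Foxf1 was 1.62 ± 0.26 in the mutant group and 1.82 ± 0.06 in the wild-type group, a difference of -0.20 that was within the spread of the libraries (exact permutation p = 0.286).

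Foxl2, best known from the ovary and also enriched in brain ECs, fell with little spread between pups. Its gene lies on chromosome 9 (98955607 to 98956847, plus strand). It had 395, 358, 381 and 331 normalized counts in mutant replicates 1 to 4 and 748, 702, 628.5 and 669 in wild-type replicates 1 to 4. All mutant libraries were well below all wild-type libraries. Its log2 fold change was -0.91 (SE 0.10, adjusted p = 5.6e-05, edgeR quasi-likelihood test, Benjamini-Hochberg adjusted), and it stayed between -0.94 and -0.84 when 1 library was left out.

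Foxo1 rose by 1.40-fold. It lies on chromosome 3 (52268336 to 52353221, plus strand). The mutant libraries had 7534, 6198, 5624 and 7292.5 normalized counts and the wild-type libraries 4298, 4422, 4256 and 6102.5. Wild-type replicate 4 was well above the other wild-type libraries and also above mutant replicate 3, so the groups overlapped. The log2 fold change was 0.48 (SE 0.14, adjusted p = 0.015, edgeR quasi-likelihood test, Benjamini-Hochberg adjusted), and without wild-type replicate 4 it was 0.62 (adjusted p = 1.8e-03).

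The relatives of Foxo1 moved the other way. Foxo4 fell from 2779.5 to 1382 normalized counts (log2 fold change -1.01, adjusted p = 3.2e-05) and Foxo3 fell slightly from 3537 to 2973 (-0.25, adjusted p = 0.040). The call for Foxo3 was close to the threshold and its groups overlapped, with mutant replicate 2 at 3202 above wild-type replicate 4 at 3159. AKT phosphorylates Foxo3 and Foxo4, as it does Foxo1. Foxo6, a neuronal relative, fell by 1.83 from a mean of only 32.7 normalized counts (adjusted p = 3.6e-03). The log2 ratio of Foxo1 to Foxo4 was 2.27 ± 0.35 in the mutant group and 0.77 ± 0.29 in the wild-type group (SD, n = 4), a difference of 1.5 (exact permutation p = 0.0286, adjusted p = 0.0457). For Foxo1 to Foxo3 the difference was 0.74, and the groups overlapped (exact permutation p = 0.0571, adjusted p = 0.0762).

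Foxp1, which acts in endothelial angiogenesis and is widely expressed, had a log2 fold change of 0.20 (SE 0.08, adjusted p = 0.059, edgeR quasi-likelihood test, Benjamini-Hochberg adjusted) and did not pass the test. It lies on chromosome 6 (98925338 to 99522721, minus strand). It had 5155, 4848, 5029.9 and 5340.1 normalized counts in the mutant libraries and 4252, 4298, 4124 and 5058.5 in the wild-type libraries. Wild-type replicate 4 lay above 2 of the mutant libraries, and without it the log2 fold change was 0.27 and passed (adjusted p = 0.011). It also passed with a term for the replicate number (0.20, adjusted p = 0.033) or for the shared label digits (0.20, adjusted p = 0.018). Its relative Foxp4 rose from 284 to 749 normalized counts (log2 fold change 1.39, adjusted p = 6.3e-04), with wild-type replicate 3 at 456 above the other wild-type libraries. The log2 ratio of Foxp1 to Foxp4 was 1.27 lower in the mutant group (2.77 ± 0.08 against 4.03 ± 0.61, SD, n = 4, exact permutation p = 0.0286, adjusted p = 0.0457).

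**Figure D3:**
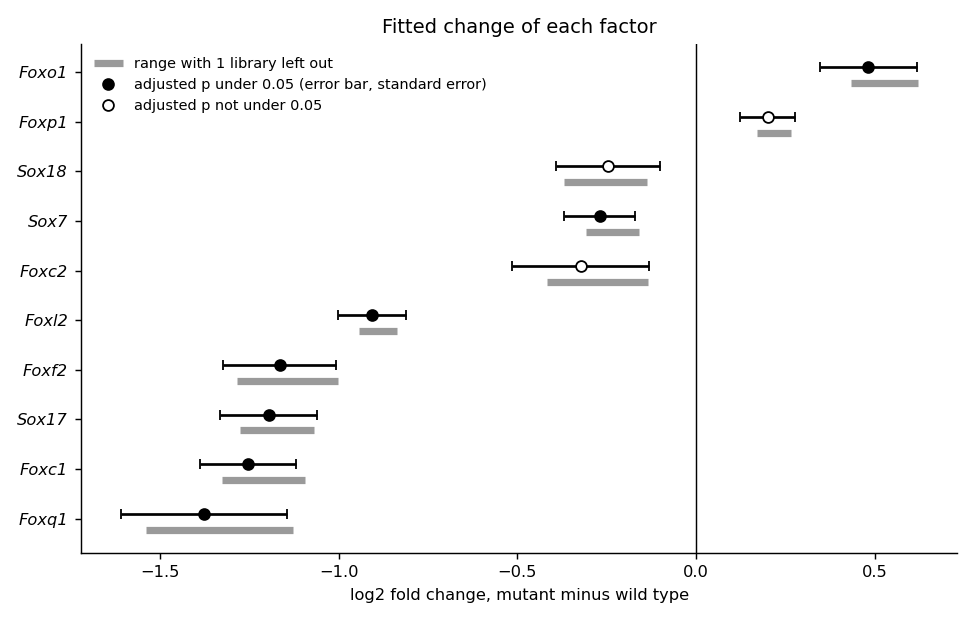
Fitted log2 fold change (mutant minus wild type) of each factor with its standard error, where filled circles passed an adjusted p under 0.05 and open circles did not, and grey bars give the range when 1 library is left out. Foxq1, Foxc1, Sox17 and Foxf2 lie between -1.38 and -1.17, Foxl2 at -0.91, and Foxo1 is the 1 filled circle above 0.

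The order of the factors by level per gene length (RPKM, reads scaled by gene length and library size) differed between the groups. That length joins the exons of a gene in the count files, for Foxp1 13751 bases against 7177 in its longest GENCODE coding transcript. For Foxq1 (2653 against 4843), Foxc1 (3953 against 5844) and Foxl2 (1241 against 3256) it was shorter than that transcript. The order of genes within a group therefore depends on the annotation. In wild-type ECs Sox7 was the highest at 227 ± 11.3 RPKM (SD, n = 4), followed by Foxf2 at 106 ± 9.58. Sox18 (83.5), Foxq1 (69.95), Sox17 (63.8) and Foxc1 (57.7) came next, and each of these overlapped its neighbour in the order. Foxl2 (18.6) and Foxo1 (18.5) overlapped as well, Foxp1 was at 10.9 and Foxc2 at 3.80 ± 0.56. In mutant ECs Sox7 was again the highest at 188 ± 24.1 RPKM. Sox18 was at 70.4 ± 14.2 and Foxf2 at 47.1 ± 11.3, with overlapping libraries. Sox17 (27.8), Foxq1 (27.0), Foxo1 (25.9) and Foxc1 (24.2) overlapped each other in turn, so that Foxo1 stood among the factors that were above it in wild-type ECs. Foxl2 was at 9.95 ± 0.76 RPKM, below Foxp1 at 12.5 ± 0.51. Mutant replicate 4 was the lowest mutant library for 8 of the 10 factors, all but Foxo1 and Foxp1.

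The rest of both families gives the setting for these factors. Of 53 other Sox and Fox genes, 30 were tested, 15 fell, 5 rose and 10 did not pass, with a median log2 fold change of -0.51. Several of those that fell are factors of glial and neural cells. Sox10, the oligodendrocyte factor, fell by 3.08 on the log2 scale from 127 to 15.0 normalized counts, Sox8 by 2.11 and Sox2, a neural progenitor factor, by 2.16. Sox9, an astrocyte factor, fell by 2.09 from 1459.6 ± 49.4 to 343 ± 139 normalized counts (SD, n = 4, adjusted p = 5.0e-05). Foxp2, a factor of neurons, fell by 1.87. All 6 oligodendrocyte markers and 4 of 6 neuron markers fell in the same libraries, the oligodendrocyte sum to 0.236 and the neuron sum to 0.465 of wild type, while of 5 astrocyte markers Gja1 rose and Aldh1l1 fell, and their part in the change of these Sox and Fox genes was not tested. Among genes at higher levels, Sox13 fell by 0.70 (adjusted p = 3.6e-04), Sox4 rose by 0.50 (adjusted p = 5.2e-03), Foxn2 rose by 0.80 (adjusted p = 1.8e-04) and Foxj3 rose by 0.21 (adjusted p = 0.042).

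**Figure D4:**
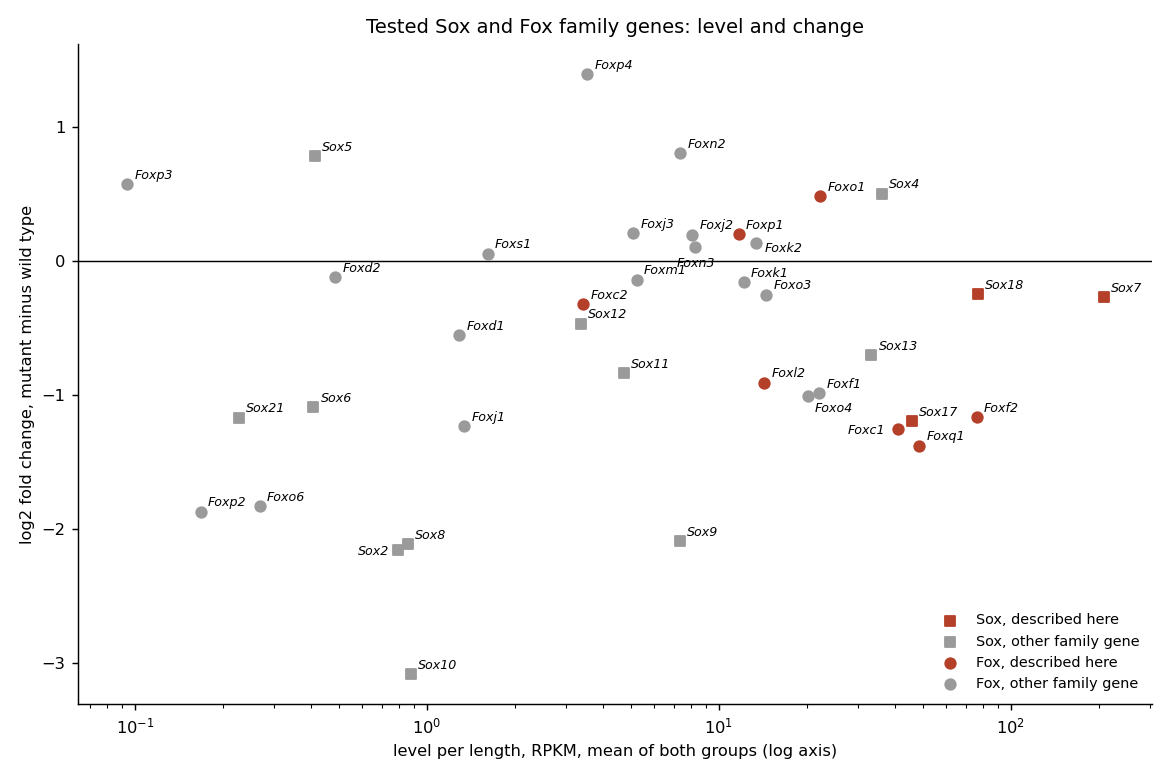
Log2 fold change (mutant minus wild type) of 39 tested Sox (squares) and Fox (circles) genes against their mean level in RPKM on a log axis, with the 10 factors in red and the others in grey. Foxq1, Foxc1, Sox17 and Foxf2 combine levels above 20 RPKM with changes below -1, as does Foxo4 (-1.01) among the other genes. Sox10, Sox2 and Sox8 changed more at levels under 2 RPKM.

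Lists of targets were examined for SoxF, Foxc and Foxo1, and each held genes that rose and genes that fell. Their counts are to be read against the 44.4% of all genes that passed, and the lists were chosen with earlier results of these data known. Of 14 SoxF targets, 6 fell, 2 rose and 6 did not pass, with a median log2 fold change of -0.23. Lef1, a Wnt-responsive factor, fell by 1.46 and Hey1, a Notch effector, by 0.88, whereas Mmp14, a matrix metalloproteinase, rose by 1.88 and Cdh5, the cadherin of endothelial junctions, by 1.11. Of 8 Foxc targets, 4 fell, 3 rose and 1 did not pass, and the 7 that passed became 3 without wild-type replicate 2 and 4 without wild-type replicate 4. The integrin Itgb3 rose by 4.63 and the chemokine receptor Cxcr4 by 0.93, and Hey2 and the tight junction gene Cldn5 fell by 0.74 and 0.47. Of 20 Foxo1 targets, 7 fell, 4 rose and 9 did not pass. Angpt2, the Tie2 ligand that Foxo1 activates, rose by 2.03 from 3929 ± 1160 to 16004 ± 2962 normalized counts (SD, n = 4), and the repressor Bcl6 rose by 1.09, while the flow-responsive factors Klf2 and Klf4 fell by 1.72 and 1.40. Every change given here for a named target passed an adjusted p under 0.05 in edgeR quasi-likelihood test, Benjamini-Hochberg adjusted, and Dll4, Notch1, Gja4 and Cldn5 stand in both the SoxF and the Foxc list.

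Of 18 brain endothelial factors and barrier genes, 14 fell, 2 rose and 2 did not pass. Their median log2 fold change was -1.28 against -0.02 for all genes. This list too was chosen with earlier results of these data known, so its counts and median may partly reflect that choice. The transferrin receptor Tfrc fell by 2.75, the lipid transporter Mfsd2a by 2.34 and the amino acid transporter Slc38a5 by 2.25, and Plvap, a protein of fenestrated and leaky endothelium, rose by 3.26. Of 20 other endothelial transcription factors, 8 rose, 8 fell and 4 did not pass, with a median of 0.24. Lmo2, a partner of Tal1, fell by 1.76 and Epas1 by 0.76, and Bcl6b rose by 0.99. Meox2 rose by 1.74 at low levels, from 6.43 to 21.7 normalized counts. Of 16 genes of the AKT and ERK cascades and Foxo relatives, 4 rose, 4 fell and 8 did not pass, and the 8 that passed became 5 without wild-type replicate 2. Besides Map2k1 and the Foxo genes, the deacetylase Sirt1 fell by 0.72 (adjusted p = 4.0e-03).

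**Figure D5:**
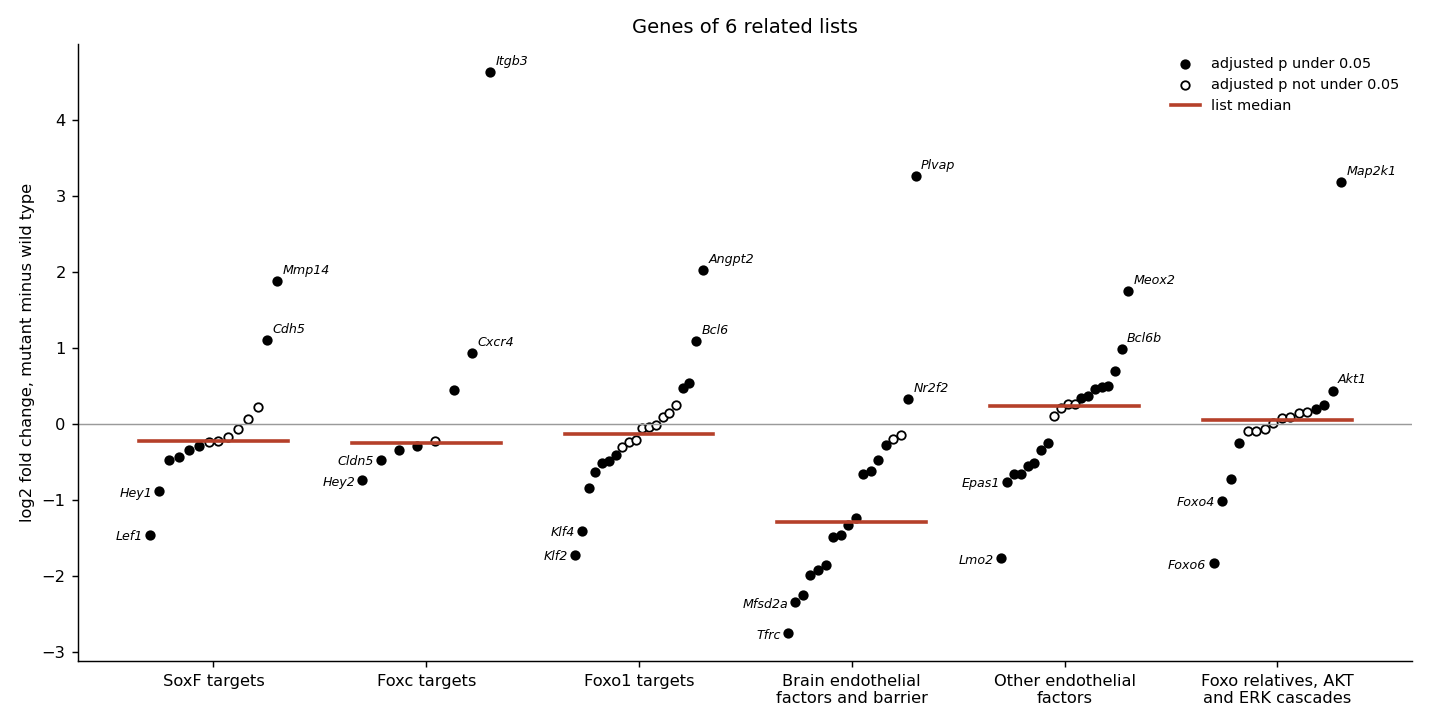
Log2 fold change (mutant minus wild type) of each tested gene in 6 lists, with filled points for an adjusted p under 0.05, open points for the rest and a red line at the median of each list. The line for brain endothelial factors and barrier genes lies at -1.28, and the other 5 medians lie between -0.25 and 0.24.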

How the data were processed

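Poly(A) RNA of 8 libraries was sequenced with paired reads. Per the study's methods, the authors trimmed reads with Trimmomatic and mapped them to GRCm38 with STAR, and they deposited raw counts per gene and library. The counting program, its annotation and its handling of strand and multimapped reads are not given in the sources used here. The deposited table normalized with DESeq2 was not used. Of 49315 Ensembl identifiers, 49056 matched a symbol (GENCODE). Counts were tested with edgeR 4.0.16 (TMM, filterByExpr with a minimum count of 10, quasi-likelihood test, Benjamini-Hochberg adjustment over 16887 genes). RPKM used the length column of the files. Levels of summed markers and ratios of relatives were compared with two-sided exact permutation tests over libraries. On simulated data for this comparison with 16887 genes, 24 of 67 genes changed 1.5-fold, 47 of 67 changed 2-fold and 60 of 66 changed 4-fold were called, with 6 false calls. Far fewer genes changed in the simulation than the 7504 called here, so its rates do not measure the power or errors of the real test. The members and lists were chosen with earlier results of these data known. Named genes were all 10 members, Map2k1, up to 8 other family genes with log2 changes beyond 1 and 6 with smaller ones, and the 4 called genes of largest change in each list. Genes beside the forkhead clusters were named after their values were seen. Coding sequences were aligned with MAFFT 7.526. RefSeq windows before the start were found for 5 of 10 members, and protein identity was not computed. One family gene and one sequence are not reported here. Depth limits low genes, since Foxc2 had between 182 and 412 raw counts a library. Replicates of a group differed by more than sampling noise. Alternatives were DESeq2 1.42.0, other scalings and filters, an adjusted p under 0.01, a block for replicate number or label digits, each library left out, and scaling on endothelial markers, which was added after seeing the data.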

Additional observations from a re-analysis of the deposited data

Results flagged for a closer look

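In 114 groups of 4 libraries, 7 held 1 library whose gap to the nearest other library exceeded Dixon's limit for 4 values, as a share of the group's range. Chance alone flags about 1 in 20 groups. Of these, 3 were wild-type replicate 4. It had 6102 normalized counts of Foxo1 against 4256 to 4422 in the other wild-type libraries, 5644 of Angpt2 against 3080.1 to 3518, and 1323 of Foxn2 against 1112 to 1138, and the log2 fold change of Foxo1 passed the test with and without it. Wild-type replicate 3 had 456 normalized counts of Foxp4 against 205 to 241 in the others, and its summed lymphatic markers were 8613 against 9431 to 9512. Mutant replicate 3 had 549 normalized counts of Sox9 against 248 to 289.7 in the other mutant libraries, still below every wild-type library, and 35.5 of Meox2 against 15.2 to 18.3.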

How the results depend on the processing

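Sox17, Foxo1, Foxc1, Foxf2, Foxq1 and Foxl2 kept their direction and their call at an adjusted p under 0.05 in all 17 alternative fits. In that order their log2 fold changes were -1.28 to -1.07, 0.42 to 0.62, -1.33 to -1.10, -1.28 to -1.003, -1.54 to -1.13 and -0.97 to -0.84. The adjusted p of Foxo1 reached 0.0456 across these edgeR and DESeq2 fits. In the main edgeR fit Foxo1 did not pass an adjusted p under 0.01. Sox7 lost its call with DESeq2's size factors in edgeR (-0.25), without a filter (-0.26) and in DESeq2 (-0.25), and it ranged from -0.31 to -0.16 with 1 library left out. Sox18 gained a call with scaling on endothelial markers (-0.29, adjusted p = 0.048), and Foxp1 gained one with DESeq2's size factors (0.22), a filter of 1 CPM in 4 libraries (0.21) and in DESeq2 (0.22), and ranged from 0.17 to 0.27 with 1 library left out. The 10 members therefore held 2 higher calls instead of 1 under those 3 settings, and 0 at an adjusted p under 0.01. The number of higher calls with 1 library left out was 1 to 2. The other family genes held 3 higher calls instead of 5 with endothelial marker scaling and at an adjusted p under 0.01. With 1 library left out, between 3 and 7 of the 8 Foxc targets and between 5 and 8 of the 16 cascade genes passed, the lowest values being without wild-type replicate 2. The log2 ratio of Sox7 to Sox18 differed by -0.02 between groups and ranged from -0.14 to 0.057 with 1 library left out. The causes were not tested.

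Wild-type pups came from the litters of the mutant pups, but the sources used here do not say which library came from which litter. Same-numbered libraries deviated together from their group means by correlations of 0.20, 0.21, 0.29 and 0.02 across genes for replicates 1 to 4. Mutant replicate 4 and wild-type replicate 3 reached 0.38. The main test used no pairing because the study's methods state no covariate, and these correlations do not show that pairing is absent. With the replicate block, Sox18 (-0.26) and Foxp1 (0.20) passed, 7 members were lower and 2 higher, and 8162 genes passed in all against 7504. With a block for the first digits of the sample descriptions, whose meaning the labels do not give, Sox18 (-0.26), Foxc2 (-0.34) and Foxp1 (0.20) passed, so that 8 members were lower and 2 higher, and no member changed direction.

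Across scalings the median log2 fold change of all genes lay between -0.09 and 0.02. In the 300-base promoter window, which adds bases after the start, Foxc1 also held AGGAAG and Foxf2 CGGAAG.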
